A study of Mus musculus with 8 samples.

Results

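The 9 genes described here, Gli1, Gli2, Gli3, Ptch1, Smo, Hhip, Boc, Cdon and Gas1, are core genes of the Hedgehog pathway. They were taken by symbol from a deposited table of read counts with 50578 genes, and each symbol matched 1 row. RNA-seq had been performed on wild-type mouse embryonic fibroblasts (MEFs), primary connective tissue cells of C57BL/6J embryos at passages P3 to P5, in 4 groups of 2 libraries. The groups were MEFs without a compound and MEFs cultured with 10 µM Carbidopa, LY-364747 or CHIR-99021 from 2 hours after plating, in medium with serum that was changed every 3 days. Carbidopa inhibits aromatic-L-amino-acid decarboxylase, CHIR-99021 inhibits the kinase GSK3 and LY-364747 is the labels' spelling of the TGF-beta receptor inhibitor that the study's methods write as LY-364947. The study's methods give 7 days of treatment for RNA used in quantitative PCR and do not restate a time for RNA-seq. The sources used here do not name a vehicle for the MEFs without a compound and do not say whether the 2 libraries of a group came from separate embryos, so p-values measure only the spread between these libraries. The labels call the treated cells hepatic-like. By quantitative PCR the study reports rises of Alb, Hnf4a, Cyp1a1 and Cyp2a1 and falls of Acta2 and Wisp2. It also reports an epithelial-like shape and staining for fat and glycogen. In its hierarchical clustering of RNA-seq data, the treated cells lay close to hepatic progenitor-like cells and apart from MEFs. In these libraries none of 12 hepatocyte marker genes had enough reads to be tested. Their summed level was 1.04 and 0.774 CPM (counts scaled to a common library size) in the MEF libraries and 1.33 to 1.68 CPM in treated libraries.

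Hedgehog ligands (Shh, Ihh and Dhh) are secreted proteins that bind the receptor Ptch1 together with a co-receptor, Cdon, Boc or Gas1. Binding relieves the block that Ptch1 places on Smo, a membrane protein that acts in the primary cilium, and Smo then lets the Gli transcription factors act as activators rather than repressors. Hhip binds ligand without passing on a signal, and Gli1, Ptch1 and Hhip are themselves well-known target genes of the pathway, so their RNA is often read as its output. Mesenchymal cells such as fibroblasts are a classical responding cell type.

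The library totals ranged from 15039566 to 20504338 counts, so 1 CPM stood for 13.4 to 21.4 reads after normalization by the trimmed mean of M-values (TMM). The Carbidopa libraries differed from each other more than any other pair, with a root mean square log2 difference over genes of 0.515 against 0.385 to 0.405 in the other pairs. The members' differences between Carbidopa and MEFs are also given without Carbidopa 1, but this spread does not say which library is the unusual one. Without Carbidopa 2 instead, the log2 fold change against MEFs was -1.91 for Gli2 and -1.07 for Gli3. Macrophage markers, 15 genes in the table, summed to 1220 and 1264 CPM in the MEF libraries, to 380 and 398 CPM with Carbidopa, to 282 and 292 CPM with LY-364747 and to 92.2 and 99.6 CPM with CHIR-99021. Fibroblast markers summed to 16415 and 16647 CPM in MEFs and to between 6170 and 8475 CPM in treated libraries, and proliferation genes to 401 and 405 CPM in MEFs, 349 to 393 CPM with Carbidopa or LY-364747 and 220 and 238 CPM with CHIR-99021. Lower sums in all treated libraries were also seen for markers of skeletal muscle (50.3 and 47.0 CPM in MEFs, 6.68 to 17.2 CPM in treated libraries), endothelium (25.3 and 23.2, then 11.6 to 16.1), cartilage (23.5 and 20.5, then 8.52 to 14.2) and neural and glial cells (20.7 and 17.0, then 5.28 to 7.77), and higher sums for epithelial markers (4.31 and 3.42, then 9.82 to 23.2). Only 2 of 8 skeletal muscle and 4 of 8 endothelial markers had enough reads to be tested. So did 1 of 6 cartilage and 3 of 8 neural and glial markers. Of the 10 epithelial markers 5 were tested, and their log2 fold changes with LY-364747 against MEFs ran from -3.44 to 1.77. Of the 12 fibroblast markers, 9 were lower and 2 higher against MEFs with each treatment (adjusted p under 0.05, edgeR). All these marker levels moved with the groups compared, and their part in the values of the Hedgehog genes was not tested. In RNA from whole cultures, fewer cells that express a gene and less RNA per cell cannot be told apart.

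To show the DNA in front of members that are known targets of the Gli factors, Hhip and Ptch1, and of Gli2, whose RNA was lower in every treated library, the bases before their RefSeq transcript starts are printed in lower case, 5′ to 3′ on the gene's strand (assembly GRCm38.p6, which is mm10). RefSeq promoter windows were matched by symbol for 7 of the 9 members. Gli1 and Boc had no entry.
Hhip, chr8:80058009-80058258, minus strand: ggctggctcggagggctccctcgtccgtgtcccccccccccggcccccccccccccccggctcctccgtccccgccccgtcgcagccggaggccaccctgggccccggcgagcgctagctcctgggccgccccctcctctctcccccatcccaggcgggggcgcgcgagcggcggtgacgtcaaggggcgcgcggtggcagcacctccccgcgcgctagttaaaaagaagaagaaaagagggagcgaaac
Ptch1, chr13:63565736-63565985, minus strand: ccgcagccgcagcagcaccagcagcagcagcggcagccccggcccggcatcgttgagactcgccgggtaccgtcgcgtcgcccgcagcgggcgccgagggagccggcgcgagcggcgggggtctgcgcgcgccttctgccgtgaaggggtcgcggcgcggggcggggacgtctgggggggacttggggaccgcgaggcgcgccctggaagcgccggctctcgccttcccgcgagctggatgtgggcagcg
Gli2, chr1:119053620-119053869, minus strand: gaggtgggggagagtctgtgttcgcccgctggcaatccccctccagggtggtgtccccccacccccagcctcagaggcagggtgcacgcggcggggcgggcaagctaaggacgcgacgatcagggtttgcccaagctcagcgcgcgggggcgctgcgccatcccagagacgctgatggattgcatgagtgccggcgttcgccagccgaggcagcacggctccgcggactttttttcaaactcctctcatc
The Ptch1 stretch lies inside the gene as GENCODE draws it, before the start of the RefSeq transcript. The G and C content of these stretches was 76%, 78.4% and 67.2%, respectively, and no annotated exon lies in them. In the 300-base windows from which they were taken, which run on to the first bases of the transcript, the Gli motif GACCACCCA was searched for on both strands, and so was the TCF motif CTTTGAT, the site of the factors through which beta-catenin acts. Neither was present in the windows of the 7 members, so no letters are in capitals. The windows of Cdon (chr9:35451826-35452125) and Gli3 (chr13:15463473-15463772) also lie inside their genes as GENCODE draws them. That of Cdon overlaps an annotated exon of Cdon. For Ptch1, Cdon and Gli3, the DNA before the GENCODE start of the gene was therefore not searched. Over all 32851 RefSeq windows of that length, 83 (0.253%) held the first motif and 1225 (3.73%) the second, which says only how often these letters occur.

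The first question was how the members differed between treated and untreated MEFs. Of the 9 members, 8 had enough reads to be tested, and Gli1 did not. Against MEFs, 6 of the 8 tested members passed with Carbidopa, 3 higher and 3 lower, where 37.7% of all 15154 genes tested passed, 18% higher and 19.7% lower (edgeR quasi-likelihood test, adjusted p under 0.05). With LY-364747, 6 passed, 4 higher and 2 lower, against 31% of all genes, 13.7% higher and 17.2% lower. With CHIR-99021, 4 passed, 3 higher and 1 lower, against 38.8% of all genes, 18.7% higher and 20.1% lower. Members whose treated libraries did not overlap with the MEF libraries numbered 4 above and 3 below with Carbidopa, beside 35.6% and 33.3% of all genes, 5 and 3 with LY-364747, beside 37.6% and 35.2%, and 5 and 2 with CHIR-99021, beside 40.4% and 35.8%. Over the 8 members the median log2 fold change was 0.24, 0.40 and 0.17, and that of all genes tested 0.04, 0.03 and 0.04, in the same order. The 3 comparisons share the MEF libraries and are not independent of each other. Without Carbidopa 1, 8 members passed with Carbidopa, as did 5155 of the 15154 genes. Without MEF 1, fewer members and fewer of all genes passed with LY-364747, and the other counts also changed with the library left out.

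**Figure D1:**
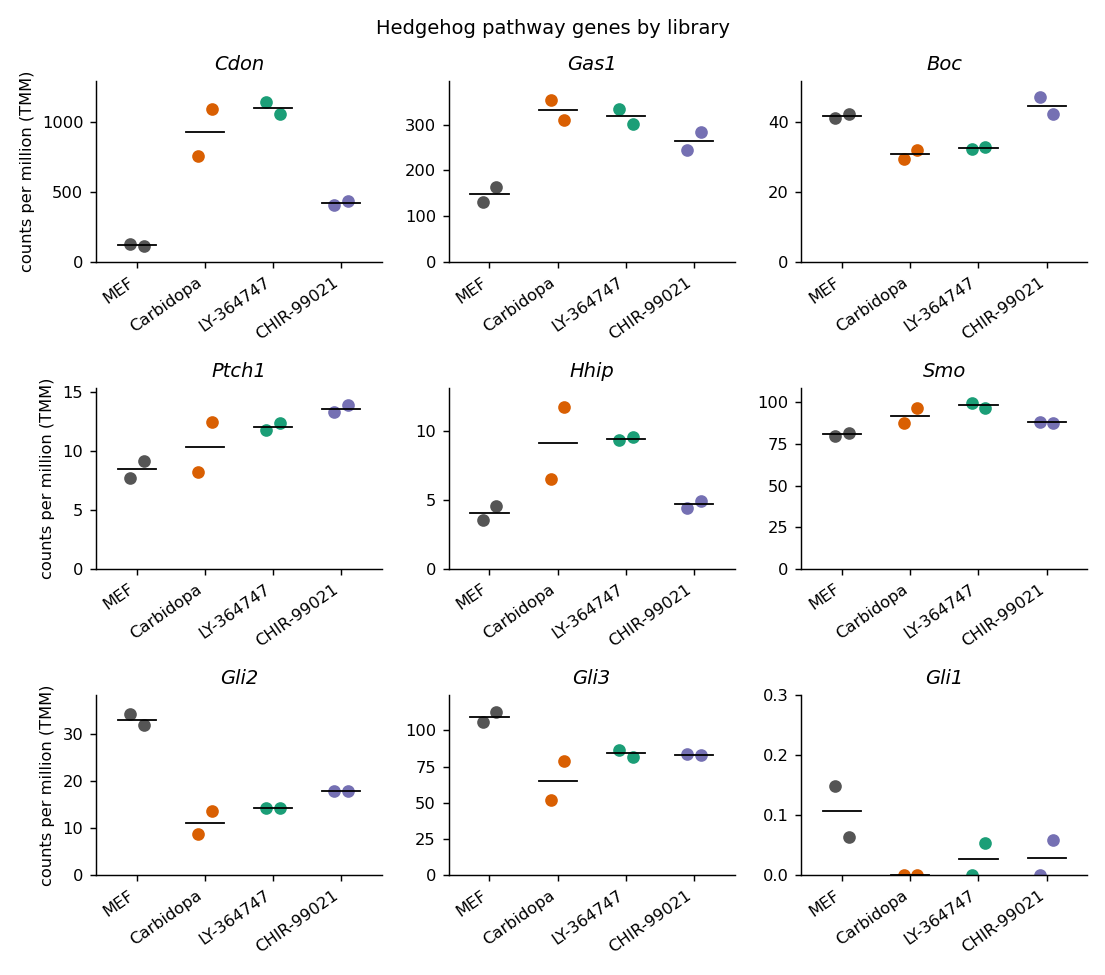
Level of each of the 9 members in CPM with TMM normalization (vertical axes, each from 0) in the 2 libraries of each group (dots) with the group mean (line). Cdon and Gas1 lie higher and Gli2 lower in all 6 treated libraries than in both MEF libraries, and Gli1 is at 0.149 CPM or less in every library.

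Cdon, an immunoglobulin-type membrane protein and Hedgehog co-receptor, had the largest change of any member. Its reads numbered 1684 and 1771 in untreated cells, 16130 and 23452 under Carbidopa, 20405 and 19861 with LY-364747 and 7055 and 7544 with CHIR-99021. On the CPM scale these were 125 and 114, 759 and 1094, 1145 and 1058, and 406 and 438. All treated libraries were above both MEF libraries, and the CHIR-99021 libraries lay between the MEF libraries and those of the other treatments. Cdon rose by a log2 fold change of 2.95 ± 0.17 (SE; 7.74-fold, adjusted p = 4.4e-07, edgeR) with Carbidopa, and by 3.19 without Carbidopa 1. It rose by 3.20 ± 0.17 (9.20-fold, adjusted p = 2.7e-07, edgeR) with LY-364747 and by 1.82 ± 0.16 (3.52-fold, adjusted p = 1.1e-05, edgeR) with CHIR-99021. Among the 15154 genes tested, 228 had a larger rise than Cdon with Carbidopa, 192 with LY-364747 and 463 with CHIR-99021. The gene spans chr9:35421128-35507652 on the plus strand, and its exons overlap no other annotated gene.

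Gas1, a co-receptor anchored to the cell surface by a lipid, had 1756 and 2546 reads in MEFs, 7536 and 6656 under Carbidopa, 5965 and 5650 with LY-364747 and 4251 and 4888 with CHIR-99021. Every treated library was above both MEF libraries on the CPM scale, at 245 to 355 CPM against 131 and 164 CPM. Gas1 rose by a log2 fold change of 1.17 ± 0.14 (2.26-fold, adjusted p = 9.0e-05, edgeR) with Carbidopa, 1.07 without Carbidopa 1. The rise was 1.11 ± 0.14 (2.16-fold, adjusted p = 1.4e-04, edgeR) with LY-364747 and 0.84 ± 0.14 (1.79-fold, adjusted p = 8.1e-04, edgeR) with CHIR-99021. Gas1 has 1 exon, chr13:60174405-60177365 on the minus strand, of which 19.9% overlaps Gm48488 on the other strand. The sources used here do not say whether strand was used in counting, so reads from that stretch cannot be assigned to either gene, and Gm48488 has no row of its own in the table.

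Boc, the relative of Cdon and the third co-receptor, did not follow the other co-receptors. Its levels were 41.1 and 42.3 CPM in MEFs, 29.5 and 32.1 CPM under Carbidopa, 32.2 and 32.8 CPM with LY-364747 and 47.0 and 42.4 CPM with CHIR-99021. The Carbidopa and LY-364747 libraries were below both MEF libraries, whereas CHIR-99021 2 was about level with MEF 2 and CHIR-99021 1 above it. Boc fell by 0.44 ± 0.11 on the log2 scale with Carbidopa (adjusted p = 0.0096, edgeR), fell by 0.38 without Carbidopa 1, and fell by 0.36 ± 0.11 with LY-364747 (adjusted p = 0.027, edgeR). With CHIR-99021 its log2 fold change was 0.10 (95% interval -0.14 to 0.34, adjusted p = 0.50, edgeR). Both called values kept their sign but missed the threshold without MEF 1 (adjusted p = 0.053 and 0.11, edgeR) and without MEF 2 (0.078 and 0.16), and the one with LY-364747 also without LY-364747 1 (0.14), LY-364747 2 (0.12) or a filter on low counts (0.066). Within a library, 3.05 and 2.70 reads fell on Cdon for each read on Boc in MEFs, 25.8 and 34.1 under Carbidopa, 35.6 and 32.3 with LY-364747 and 8.64 and 10.3 with CHIR-99021.

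Ptch1, the ligand receptor and a target of the pathway, was a low gene with 104 and 142 reads in MEFs, 175 and 267 under Carbidopa, 210 and 232 with LY-364747 and 231 and 240 with CHIR-99021. On the CPM scale it was at 7.73 and 9.16 in MEFs and at 13.3 and 13.9 with CHIR-99021, while Carbidopa 1, at 8.24 CPM, lay between the MEF libraries and Carbidopa 2, at 12.5 CPM, above them. Ptch1 rose by a log2 fold change of 0.68 ± 0.20 with CHIR-99021 (1.61-fold, adjusted p = 0.022, edgeR). Its log2 fold change was 0.51 ± 0.20 with LY-364747 (adjusted p = 0.083, edgeR) and 0.29 ± 0.20 with Carbidopa (adjusted p = 0.28, edgeR). The last value rested on which Carbidopa library was used, since it was 0.56 without Carbidopa 1 (adjusted p = 0.020, edgeR) and -0.04 without Carbidopa 2. The value with CHIR-99021 missed the threshold without MEF 1 (0.57), MEF 2 (0.80), CHIR-99021 1 (0.72) or CHIR-99021 2 (0.65). The one with LY-364747 passed without either Carbidopa library, at 0.51 without Carbidopa 1, and in 2 of the 6 alternative fits described below.

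Hhip, the decoy receptor and another target of the pathway, had 48 and 70 reads in MEFs, 138 and 252 under Carbidopa, 166 and 179 with LY-364747 and 77 and 85 with CHIR-99021. These were 3.57 and 4.52 CPM in MEFs, 6.50 and 11.8 CPM under Carbidopa, 9.32 and 9.53 CPM with LY-364747 and 4.43 and 4.93 CPM with CHIR-99021. The Carbidopa and LY-364747 libraries stood above both MEF libraries, and the CHIR-99021 libraries overlapped with them. Hhip rose by a log2 fold change of 1.17 ± 0.28 with Carbidopa (2.25-fold, adjusted p = 0.0082, edgeR), 1.53 without Carbidopa 1, and by 1.21 ± 0.28 with LY-364747 (2.32-fold, adjusted p = 0.0074, edgeR). With CHIR-99021 it was 0.21 ± 0.29 (95% interval -0.45 to 0.86, adjusted p = 0.62, edgeR). Without MEF 1 the values with Carbidopa and LY-364747 were 1.01 and 1.06 and missed the threshold (adjusted p = 0.072 and 0.070, edgeR), and without Carbidopa 2 the value with Carbidopa was 0.68.

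Smo, the membrane protein that passes the signal on, showed small differences. It had 79.9 and 81.7 CPM in MEFs, 87.4 and 96.5 CPM under Carbidopa, 99.7 and 96.9 CPM with LY-364747 and 88.3 and 87.9 CPM with CHIR-99021, so that every treated library was above both MEF libraries by a small step. Smo rose by 0.28 ± 0.10 on the log2 scale with LY-364747 (1.22-fold, adjusted p = 0.047, edgeR). The log2 fold change was 0.19 with Carbidopa (95% interval -0.03 to 0.40, adjusted p = 0.15, edgeR) and 0.12 with CHIR-99021 (-0.09 to 0.34, adjusted p = 0.33, edgeR). The call with LY-364747 was lost without either MEF, CHIR-99021 or LY-364747 library (adjusted p = 0.077 to 0.22, edgeR) and with DESeq2 (adjusted p = 0.12), RLE size factors (0.071), no filter on low counts (0.12) or the replicate block (0.076), and Smo passed with Carbidopa when Carbidopa 1 was left out (0.26, adjusted p = 0.032, edgeR).

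Gli2, the factor that acts mainly as an activator, was lower in all treated groups. It had 460 and 494 reads in MEFs, 186 and 293 under Carbidopa, 255 and 268 with LY-364747 and 311 and 309 with CHIR-99021. The 6 treated libraries lay between 8.76 and 17.9 CPM, below the MEF libraries at 34.2 and 31.9 CPM. Gli2 fell by 1.56 ± 0.18 on the log2 scale with Carbidopa (2.94-fold lower, adjusted p = 8.9e-05, edgeR) and fell by 1.27 without Carbidopa 1. It fell by 1.21 ± 0.18 with LY-364747 (2.31-fold lower, adjusted p = 5.2e-04, edgeR) and fell by 0.88 ± 0.18 with CHIR-99021 (1.84-fold lower, adjusted p = 0.0030, edgeR).

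Gli3, which acts mainly as a repressor when no ligand is present, was the most abundant Gli gene, with 106 and 112 CPM in MEFs, 52.1 and 78.8 CPM under Carbidopa, 86.8 and 81.7 CPM with LY-364747 and 83.6 and 82.9 CPM with CHIR-99021. All treated libraries were below both MEF libraries, and the Carbidopa pair was far apart. Gli3 fell by 0.74 ± 0.16 on the log2 scale with Carbidopa (1.67-fold lower, adjusted p = 0.0056, edgeR), or fell by 0.47 without Carbidopa 1. Its log2 fold change was -0.37 ± 0.16 with LY-364747 (adjusted p = 0.11, edgeR) and -0.39 ± 0.16 with CHIR-99021 (adjusted p = 0.082, edgeR). Both passed the threshold without either Carbidopa library, at -0.37 and -0.39 without Carbidopa 1. They also passed in some of the 6 alternative fits described below, 2 with LY-364747 and 3 with CHIR-99021. The number of Gli3 reads for each Gli2 read was 3.09 and 3.53 in MEFs, 5.95 and 5.77 under Carbidopa, 6.06 and 5.72 with LY-364747 and 4.67 and 4.62 with CHIR-99021.

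Gli1, the amplifying activator and the usual read-out of an active pathway, was hardly detected in any group. It had 2 and 1 reads in untreated cells, 0 and 0 under Carbidopa, 0 and 1 with LY-364747 and 0 and 1 with CHIR-99021. A count of 0 allows up to 3 reads in a library, so no difference was detectable at this depth and no fold is given. The ligand genes were also near the limit, with 0 to 5 reads on Shh and 0 to 4 on Ihh in each library, and neither was tested. Dhh had 3 and 0 reads in MEFs, 18 and 4 under Carbidopa, 13 and 5 with LY-364747 and 19 and 20 with CHIR-99021. Dhh passed the test with CHIR-99021 (adjusted p = 0.025, edgeR), where the ratio of its read shares was 10.9 with a 95% exact interval of 3.46 to 55.0 that covers counting error only. That call was lost without MEF 2 (adjusted p = 0.17, edgeR), CHIR-99021 1 (0.079) or CHIR-99021 2 (0.072), and Dhh passed with Carbidopa without Carbidopa 2 (0.026).

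**Figure D2:**
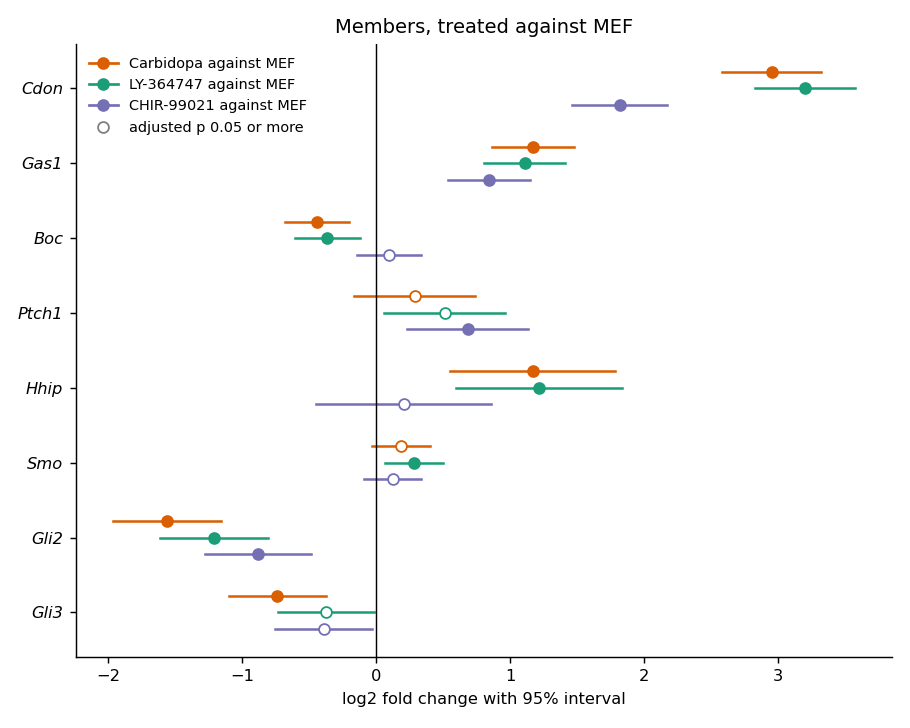
Log2 fold change against MEF (horizontal axis) with its 95% interval for the 8 members tested, with filled dots for an adjusted p under 0.05 and open dots otherwise. Cdon stands furthest to the right in each treatment, at 1.82 to 3.20, and Gli2 furthest to the left, at -0.88 to -1.56.

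Levels of different genes were compared per kilobase of exon. In MEFs the order was Gas1 at 49.8 CPM per kb, Cdon at 15.5, Smo at 14.4, Gli3 at 11.4, Boc at 9.37, Gli2 at 4.81, Ptch1 at 0.596, Hhip at 0.445 and Gli1 at 0.0213, and no neighbours in that order had overlapping libraries. With the longest transcript in place of all exons, Smo came before Cdon. In LY-364747 cells Cdon led with 142.8 CPM per kb, followed by Gas1 at 107.3. In Carbidopa cells Cdon at 120.1 and Gas1 at 112.3 could not be ordered, because their libraries overlapped, and the same held for Boc and Gli3, Gli2 and Hhip, and Hhip and Ptch1. In CHIR-99021 cells Gas1 remained first at 89.2 CPM per kb, ahead of Cdon at 54.7. Hhip stood above Ptch1 per kilobase in LY-364747 cells, at 1.04 against 0.851 CPM per kb, whereas in MEF and CHIR-99021 cells Ptch1 stood above Hhip. With the longest transcript, Ptch1 came before Hhip in LY-364747 cells too. Of the summed CPM of the 9 members, Cdon made up 20.4% to 23.7% in MEFs, 58.1% to 66.3% under Carbidopa, 65.85% to 66.04% with LY-364747 and 44.9% to 45.1% with CHIR-99021.

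**Figure D3:**
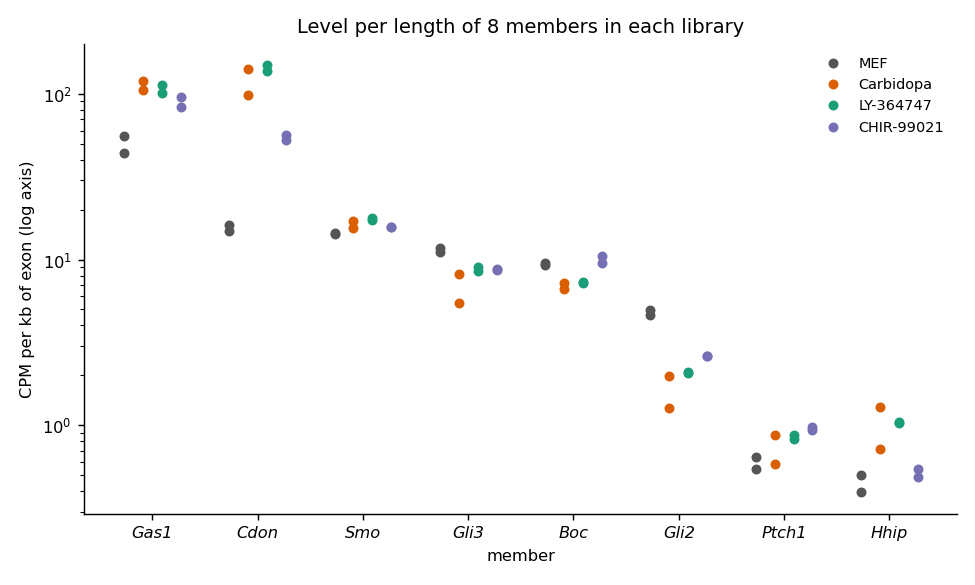
Level of the 8 detected members in CPM per kilobase of exon (vertical log axis), with a dot for each library, coloured by group. Cdon moved from 15.5 CPM per kb in MEFs to 142.8 in LY-364747 cells, and Ptch1 and Hhip stayed under 1.30 CPM per kb in every library.

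The next question was whether the treatments differed from each other. Between CHIR-99021 and Carbidopa, 4 of the 8 members passed, 2 higher and 2 lower with CHIR-99021, where 14.7% of all genes did, 6.62% higher and 8.08% lower. Libraries did not overlap for 4 members that were higher and 3 that were lower, beside 25.9% and 26.3% of all genes. Between CHIR-99021 and LY-364747, 3 passed, 1 higher and 2 lower, against 14.1% of all genes, 6.45% higher and 7.69% lower. Here 3 members were higher and 4 lower without overlap, beside 32.8% and 31.7% of all genes. With 1 library left out, the first count was lower without any library other than Carbidopa 2. The second was lower without any MEF, CHIR-99021 or LY-364747 library. Fewer of all genes also passed in these fits, except without Carbidopa 1 in the first comparison, where more of all genes passed. Cdon was lower with CHIR-99021 than with Carbidopa and fell by 1.13 ± 0.16 on the log2 scale (adjusted p = 0.0011, edgeR), or fell by 1.37 without Carbidopa 1. It was also lower than with LY-364747 and fell by 1.38 ± 0.16 (adjusted p = 3.6e-04, edgeR). These differences of Cdon passed with every library left out in turn. For Boc, CHIR-99021 exceeded Carbidopa by 0.54 ± 0.11 (adjusted p = 0.0082, edgeR) and LY-364747 by 0.46 ± 0.11 (adjusted p = 0.018, edgeR). The first was lost without CHIR-99021 1 (adjusted p = 0.095, edgeR) or with only the compared groups in the fit (0.066), and the second without CHIR-99021 1 (0.17), LY-364747 1 (0.16), LY-364747 2 (0.097) or MEF 2 (0.051).

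Hhip was lower with CHIR-99021 than with Carbidopa and fell by 0.96 ± 0.27 on the log2 scale (adjusted p = 0.037, edgeR), or fell by 1.33 without Carbidopa 1, with -0.47 without Carbidopa 2. Against LY-364747 it fell by 1.01 ± 0.27 (adjusted p = 0.032, edgeR). Both calls were near the threshold, since the adjusted p rose to 0.059 to 0.22 without any library other than Carbidopa 1 in the first comparison, and to 0.052 to 0.21 without any MEF, CHIR-99021 or LY-364747 library in the second (edgeR). For Gli2, CHIR-99021 exceeded Carbidopa by 0.68 ± 0.18 (adjusted p = 0.034, edgeR), which was 0.39 and no longer passed without Carbidopa 1 (adjusted p = 0.051, edgeR) and passed only without Carbidopa 2, at 1.03, when 1 library was left out (adjusted p = 0.051 to 0.16 otherwise). Against LY-364747 its value was 0.33 (95% interval -0.08 to 0.73, adjusted p = 0.27, edgeR; 0.036 without Carbidopa 1 and 0.038 without Carbidopa 2). Without Carbidopa 2, the differences of Gli3 (0.68, adjusted p = 3.2e-04), Ptch1 (0.72, 0.0067) and Gas1 (-0.43, 0.029) between CHIR-99021 and Carbidopa passed as well, as did 4675 of the 15154 genes (edgeR). With only the compared groups in the fit, the differences of Hhip and Gli2 between CHIR-99021 and Carbidopa missed the threshold (adjusted p = 0.085 and 0.11, edgeR).

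Between LY-364747 and Carbidopa, 0 of the 8 members passed with edgeR, where 0.0132% of all genes did. At an unadjusted p under 0.05, 1 member did, beside 1367 of the 15154 genes, and 0 passed with DESeq2, beside 16 of all genes. The intervals still allow differences, for example -0.09 to 0.59 on the log2 scale for Cdon, -0.51 to 0.60 for Hhip and -0.36 to 0.23 for Gas1. Without Carbidopa 2, 4 members passed and were higher with LY-364747, namely Gli2 (0.71), Gli3 (0.69), Cdon (0.54) and Ptch1 (0.55), in a fit in which 3832 of the 15154 genes passed. Without Carbidopa 1, the values of these members were 0.06, 0.10, 0.01 and -0.04 and none passed (adjusted p = 1.00, edgeR), where 4 of the 15154 genes did, so what this comparison gives depends on which Carbidopa library is used.

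**Figure D4:**
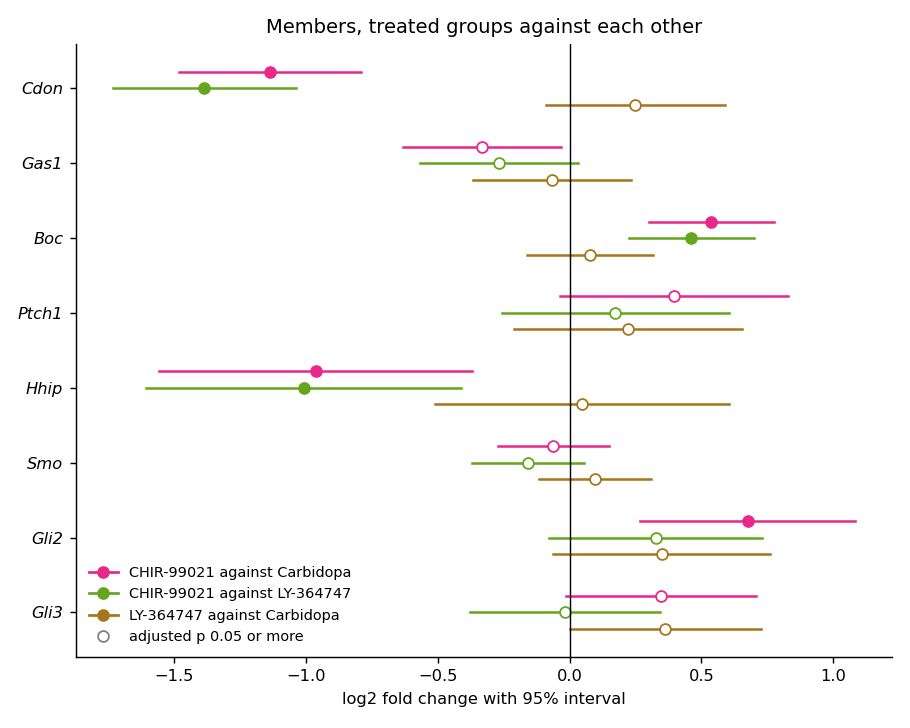
Log2 fold change between treated groups (horizontal axis) with its 95% interval for the 8 members tested, filled where the adjusted p was under 0.05. Cdon and Hhip lie to the left of 0 and Boc to the right in both comparisons of CHIR-99021 with another treatment, and all dots of LY-364747 against Carbidopa are open.

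A wider list of 48 other genes of the pathway was looked at beside the members, with 43 tested. Against MEFs, 7 rose and 6 fell with Carbidopa, 9 rose and 5 fell with LY-364747 and 15 rose and 6 fell with CHIR-99021, which is 30.2%, 32.6% and 48.8% of the list beside 37.7%, 31% and 38.8% of all genes. Median log2 fold changes over these genes were -0.02, -0.02 and 0.05. The counts moved with single libraries, and so did those over all genes tested. In both, fewer passed with LY-364747 without either MEF or LY-364747 library, and more without either Carbidopa library. Fewer also passed in both with Carbidopa without MEF 2, and with CHIR-99021 without either MEF library or CHIR-99021 1.

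Large rises in that list were seen in genes that handle the ligand outside the cell. Gpc3, a glypican that binds Hedgehog ligand at the cell surface and competes with Ptch1 for it, went from 346 and 400 reads in MEFs to 7494 and 6917 under Carbidopa, 6176 and 6119 with LY-364747 and 2771 and 2955 with CHIR-99021. All treated libraries were far above both MEF libraries, and the CHIR-99021 libraries were again between MEFs and the other treatments. The log2 fold changes were 3.71 ± 0.11 (adjusted p = 5.4e-09, edgeR), 3.71 ± 0.11 (6.2e-09) and 2.68 ± 0.11 (4.2e-08). Scube1 and Scube3, whose family helps to release lipid-bearing ligand, rose in all treated groups, by 2.72, 3.02 and 2.68 for Scube1 and 1.38, 1.88 and 2.22 for Scube3 on the log2 scale, with Carbidopa, LY-364747 and CHIR-99021 in turn. Scube1 had only 17 and 10 reads in MEFs and 98 to 147 in treated libraries, and its value ranged from 2.24 to 3.56 over the libraries left out.

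Gpc6, a glypican of another subgroup, fell by 0.72, 0.54 and 1.24 on the log2 scale with Carbidopa, LY-364747 and CHIR-99021 (adjusted p = 0.010, 0.040 and 3.8e-04, edgeR). With Carbidopa it fell by 0.44 without Carbidopa 1, and the call was lost without MEF 2 (0.077), and that with LY-364747 without any MEF, CHIR-99021 or LY-364747 library (0.055 to 0.21). Lrp2, a large endocytic receptor for Shh, fell by 1.12 with Carbidopa (-0.86 without Carbidopa 1) and by 0.90 with LY-364747 (adjusted p = 9.7e-04 and 0.0040, edgeR). With CHIR-99021 Lrp2 was at -0.42 (adjusted p = 0.090, edgeR), which passed without either Carbidopa library and in 1 of the 6 alternative fits. Inside the cell, Sufu, which holds Gli proteins back, rose by 0.42 ± 0.11 with CHIR-99021 (adjusted p = 0.015, edgeR). Its log2 fold change was 0.29 with LY-364747 and 0.03 with Carbidopa, and the value with CHIR-99021 was 0.38 with DESeq2 (adjusted p = 0.058). The call of Sufu was also lost without MEF 1, MEF 2 or CHIR-99021 1. The value of Sufu with LY-364747 passed without either Carbidopa library and in 1 of the 6 alternative fits.

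The kinases GSK3A and GSK3B phosphorylate Gli proteins for processing and are the targets of CHIR-99021. Gsk3a RNA did not pass in any treatment, with log2 fold changes of -0.11, -0.20 and -0.08 with Carbidopa, LY-364747 and CHIR-99021 (adjusted p = 0.38, 0.13 and 0.54, edgeR). Gsk3b fell by 0.52 ± 0.13 with Carbidopa (adjusted p = 0.013, edgeR) and had -0.24 with LY-364747 (0.21) and -0.32 with CHIR-99021 (0.083). The first was -0.34 without Carbidopa 1 and its call was lost without MEF 2. Both other values of Gsk3b passed without either Carbidopa library. Of the 6 alternative fits, they passed in 1 with LY-364747 and in 2 with CHIR-99021. Gsk3a with LY-364747 passed under the same omissions and in 1 of the 6 alternative fits.

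**Figure D5:**
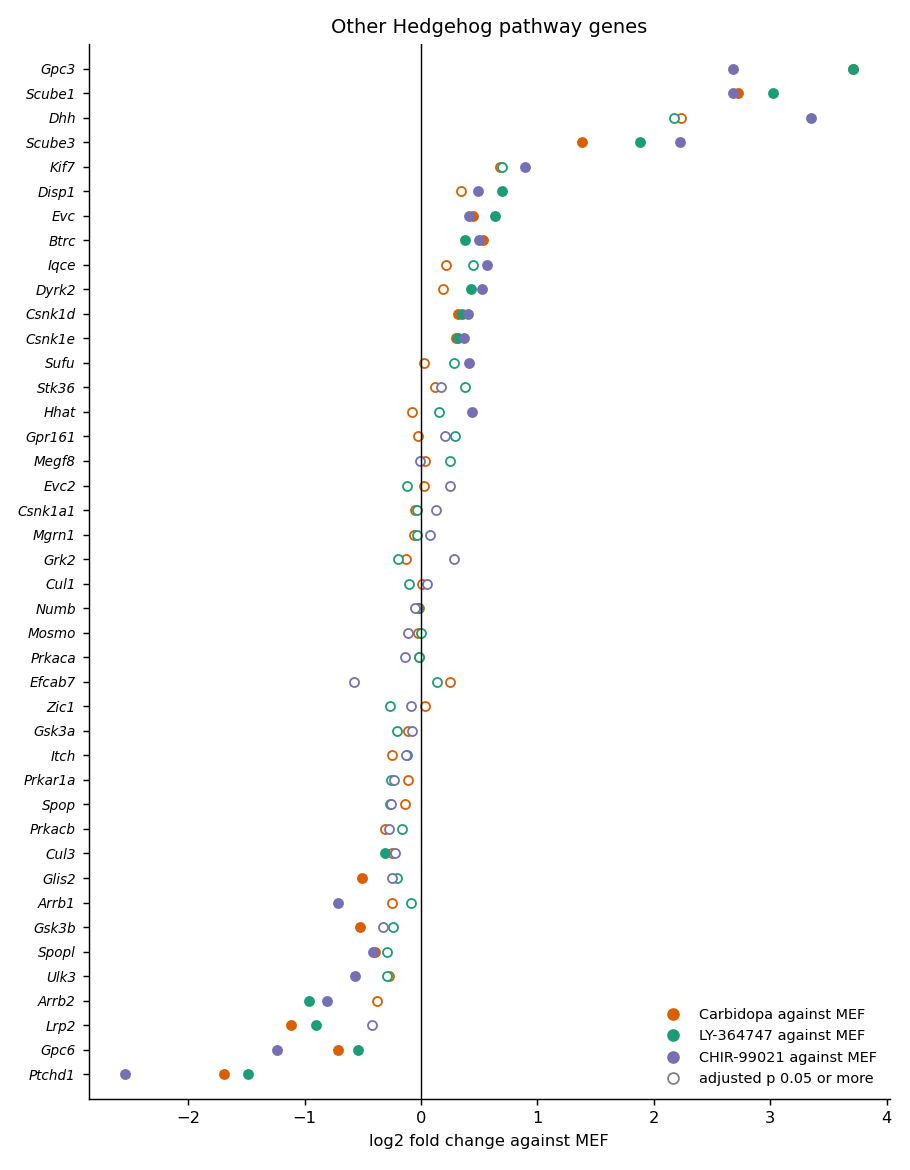
Log2 fold change against MEF (horizontal axis) of 42 of the 43 tested genes of the wider pathway list (rows, ordered by the mean of the 3 values), filled where the adjusted p was under 0.05. Gpc3, Scube1 and Scube3 lie to the right in all treatments, and most rows lie near 0.

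A list of 22 genes known as Hedgehog targets in one tissue or another, which leaves out the members, had 17 genes tested. Against MEFs 3 rose and 6 fell with Carbidopa, 3 rose and 3 fell with LY-364747 and 6 rose and 4 fell with CHIR-99021, or 52.9%, 35.3% and 58.8% of those tested, beside 37.7%, 31% and 38.8% of all genes. Their medians were 0.05, 0.06 and -0.10 on the log2 scale, beside 0.04, 0.03 and 0.04 for all genes. The last count was lower without MEF 2 or CHIR-99021 1, where fewer of all genes also passed. Osr1, a transcription factor of intermediate mesoderm, was at 28.1 CPM in MEFs, 63.4 CPM with Carbidopa, 57.0 CPM with LY-364747 and 26.1 CPM with CHIR-99021 as means. It rose by 1.17 and 1.02 on the log2 scale with the first pair of treatments (adjusted p = 3.3e-05 and 9.5e-05, edgeR), and its value with CHIR-99021 was -0.10 (adjusted p = 0.54, edgeR). Nr2f1, a nuclear receptor, rose in all treatments, by 1.63, 1.31 and 0.67, the last of which was lost without MEF 2 (0.48, adjusted p = 0.17, edgeR) or CHIR-99021 1 (0.51, 0.14).

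Bmp4, a secreted signal often induced by Hedgehog in mesenchyme, fell by 1.72, 1.39 and 1.62 on the log2 scale with Carbidopa, LY-364747 and CHIR-99021 (adjusted p = 1.7e-04, 7.3e-04 and 2.6e-04, edgeR), the first of which was -2.11 without Carbidopa 1. Bcl2, which protects from cell death, rose by 0.97 ± 0.13 with CHIR-99021 (adjusted p = 2.9e-04, edgeR) and was at 0.05 with Carbidopa (0.20 without Carbidopa 1) and 0.25 with LY-364747, neither of which passed. Igf2, a growth factor, fell by 1.14 ± 0.13 with CHIR-99021 (adjusted p = 9.3e-05, edgeR) and was at -0.30 with Carbidopa (adjusted p = 0.099, edgeR; 0.0019 without Carbidopa 2) and -0.21 with LY-364747.

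For each member that passed against MEFs in at least 1 treatment, the genes with the most similar pattern were sought by the mean absolute difference of centred log2 CPM over the 8 libraries, among 15153 other genes. The genes nearest to Cdon were Ifi203 and Dfna5, at mean differences of 0.150 and 0.158, and those nearest to Hhip were Vldlr and Gm6297, at 0.109 and 0.130. Gli2 was nearest to Sdc3 (0.061) and Pcdhgb2 (0.068), and Gas1 to Homez (0.063) and 1500011B03Rik (0.065). Boc was nearest to Zcchc2 (0.030) and Cap1 (0.037), Gli3 to Brwd1 (0.034) and Setd7 (0.036), Ptch1 to Ssh1 (0.059) and Osgepl1 (0.061) and Smo to Ppil4 (0.018) and Mycbp (0.026). None of these genes is another member.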

How the data were processed

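The data are RNA-seq of 4 groups of MEF cultures, 1 untreated and 3 with a compound, at 2 libraries per group. The authors sequenced 150-base paired-end libraries, mapped the reads to mm10 with STAR 2.4.2a and obtained read counts per gene by featureCounts. The deposited table holds these whole-number counts, as the authors made them, without normalization. The labels name a SMARTER kit and the methods a NEBNext kit, and neither the annotation release nor the strand setting is given in the sources used here.

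Groups and replicate numbers were taken from the labels. Counts were analysed in R 4.3.3 with edgeR 4.0.16, using TMM normalization, filterByExpr and the quasi-likelihood test, two-sided, with group as the only term and all 8 libraries in one fit. Adjustment was by Benjamini-Hochberg over 15154 genes with a threshold of 0.05. Standard errors are the log2 fold change divided by the root of F, and intervals are 95%. CPM use TMM library sizes, and their SD rests on n = 2. The SE comes from the fit of all 8 libraries, with 2 libraries in each group compared. The alternatives were DESeq2 1.42.0, RLE size factors, no filter, at least 10 counts in every library, the compared groups alone, a replicate block, leaving out each library and, for levels per kilobase, the longest transcript. With a library left out, an arm holds 1 library, which is assumed to vary like the other groups. No pair of libraries agreed within sampling noise. Reads are not independent molecules, so count intervals and limits cover counting error only.

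Gene positions and exon lengths are from GENCODE M21 of mm10, which held 50354 of the 50578 identifiers, and shared exons were sought as words of 75 bases. Promoters are from RefSeq GRCm38.p6. The scripts were tested on simulated data. The members and gene lists were chosen with earlier results of these data known, so no list is independent evidence. Named were all members, the 6 genes with the smallest p of each wider list among those that passed, Shh, Ihh, Dhh, Sufu, Gsk3a and Gsk3b, and the 2 genes most like each member that passed. The values of 1 gene named by this rule are not reported here, and it stays in the counts and medians of its lists. Marker lists covered fibroblasts, macrophages, hepatocytes, endothelium, epithelium, skeletal muscle, cartilage, neural and glial cells, and proliferation. Itgam was left out, since the table holds several identifiers for it.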

Additional observations from a re-analysis of the deposited data

How the results depend on the processing

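Rises of Cdon and Gas1 and the fall of Gli2 against MEF passed under all 6 alternative fits and with each of the 8 libraries left out. Over members and alternatives, 590 of 672 log2 fold changes kept their direction and side of the threshold, 51 lost a call, 24 gained one and 7 changed sign. With only the compared groups in the fit, 1 member passed between CHIR-99021 and Carbidopa, beside 988 of all 15154 genes (2227 in the main fit). Against MEF, 24 other pathway genes and 18 cilium genes passed with LY-364747, beside 6951 of all genes (4694 in the main fit). With Carbidopa, 6 cilium genes passed, beside 4167 of all genes (5717 in the main fit). With DESeq2, 6 cilium genes passed with CHIR-99021, beside 5265 of all genes (5878 in the main fit). With a library left out, members called ranged from 4 to 8, 3 to 8 and 3 to 5 with Carbidopa, LY-364747 and CHIR-99021 against MEF, and from 1 to 6, 1 to 4 and 0 to 4 for CHIR-99021 against Carbidopa, CHIR-99021 against LY-364747 and LY-364747 against Carbidopa. Other pathway genes ranged from 4 to 17, 7 to 24 and 7 to 29, targets from 7 to 11, 4 to 9 and 6 to 11, and cilium genes from 4 to 23, 4 to 16 and 5 to 16. Counts over all genes tested also changed with the library left out. The cause was not tested.

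Signs changed in values near 0 and also for Ptch1, at 0.29 for Carbidopa against MEF and 0.22 for LY-364747 against Carbidopa. Sufu with Carbidopa was -0.0011 with DESeq2 and -0.0011 with RLE, and -0.039 to 0.094 over libraries left out. Ptch1 and Bcl2 with Carbidopa ranged from -0.041 to 0.56 and from -0.12 to 0.20. Smo ranged from -0.13 to 0.012 for CHIR-99021 against Carbidopa and Gli3 from -0.060 to 0.015 for CHIR-99021 against LY-364747. For LY-364747 against Carbidopa, Ptch1 ranged from -0.045 to 0.55, Hhip from -0.32 to 0.54 and Gas1 from -0.16 to 0.034. Of the levels per kilobase, 13 of 36 moved by more than 1 SD with the longest transcript.

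Replicate numbers are shared by the groups, but deviations of same-numbered libraries correlated at -0.16 to 0.13, and nothing ties them to an animal or day. With the replicate block, 6, 5 and 4 members passed with Carbidopa, LY-364747 and CHIR-99021 against MEF, beside 5473, 4424 and 5722 of all 15154 genes. Between treatments 4, 3 and 0 passed, beside 2010, 1973 and 2 of all genes. Smo with LY-364747 lost its call under the block (adjusted p = 0.076, edgeR). Depth limits Gli1, Shh, Ihh and Dhh most, and Ptch1, Hhip and Scube1 to a lesser degree.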

Other observations

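Genes of the primary cilium, the organelle in which Smo and the Gli proteins act, were described by a list of 49 genes, all tested. Against MEFs 11 rose and 2 fell with Carbidopa, 10 rose and 1 fell with LY-364747 and 10 rose and 2 fell with CHIR-99021, or 26.5%, 22.4% and 24.5% of the list, beside 37.7%, 31% and 38.8% of all genes (edgeR). The median log2 fold changes were 0.17, 0.15 and 0.15. Wdr35, a part of the intraflagellar transport complex A, was at 79.5 ± 1.81 CPM (SD, n = 2) in MEFs and at 133.6 ± 2.99, 139.1 ± 0.894 and 140.0 ± 6.33 CPM with Carbidopa, LY-364747 and CHIR-99021. It rose by 0.75, 0.81 and 0.82 on the log2 scale. Tmem231, of the transition zone at the base of the cilium, rose by 0.83, 0.81 and 0.97, and Bbs4, of the complex that moves membrane proteins in and out of cilia, by 0.89, 0.84 and 0.99. Dync2li1, a light intermediate chain of the cilium's dynein motor, rose by 0.96, 0.51 and 0.58, and Traf3ip1, a part of complex B, by 0.68, 0.68 and 1.07. Kifap3, which belongs to the kinesin motor that moves outward in the cilium, fell by 0.39, 0.34 and 0.45. The rises of Wdr35, Tmem231 and Bbs4 passed with every library left out in turn. Among the alternative fits, DESeq2 ended the calls of Dync2li1 with LY-364747 (adjusted p = 0.12) and CHIR-99021 (0.065), leaving low counts unfiltered those of Dync2li1 (0.058) and Kifap3 (0.057) with LY-364747, and fitting the compared groups alone that of Traf3ip1 with Carbidopa (0.078). Without Carbidopa 1, Dync2li1 was at 0.85 and Traf3ip1 at 0.38 with Carbidopa. The counts depended on single libraries, and so did those over all genes tested. In both, fewer passed with Carbidopa without either MEF or CHIR-99021 library, and more without Carbidopa 2. With LY-364747 and with CHIR-99021, fewer passed in both without either MEF library or either library of that treatment. The call of Traf3ip1 with Carbidopa held only without Carbidopa 2 or either LY-364747 library (0.051 to 0.23 otherwise). The calls of Kifap3 with LY-364747 and of Dync2li1 with CHIR-99021 were lost without either library of MEF or of that treatment (0.055 to 0.13). The call of Kifap3 with Carbidopa was lost without MEF 1 (adjusted p = 0.055, edgeR) or MEF 2 (0.068), and those of Dync2li1 and Traf3ip1 with LY-364747 were lost without any MEF, CHIR-99021 or LY-364747 library (0.051 to 0.27).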
